A study of Phalaenopsis aphrodite subsp. formosana with 4 samples.

Results

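The 2 reproductive organs of Phalaenopsis aphrodite subsp. formosana, stalk (S) and flower bud (FB), were set against its 2 leaf libraries, untreated leaf (NL) and low temperature-treated leaf (CL). Members were the unique small RNA sequences that matched a known plant miRNA and had at least 100 reads summed over the 4 libraries, which left 225 of 11129 sequences and 95.6% of the 1002362 matched reads. A sequence was placed above where S and FB both exceeded NL and CL, below where S and FB both lay under NL and CL, and was called overlapping otherwise. All plants were strain M1624. S, FB and CL came from the group treated at 24°C by day and 18°C by night, and NL from plants at 32°C and 27°C. NL was thus the only library of the higher temperatures. Stalks were taken at months 1.5 to 2, flower buds at month 3.5 and leaves of both kinds between month 0 and month 2. Each library pooled plants and was sequenced once. The 2 libraries a side are therefore unlike organs or unlike temperatures, not replicates, and each difference compares libraries. No markers of stalk, bud or leaf are among miRNA-matched reads, so the organ labels were not checked.

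Plant miRNAs are short RNAs, mostly 21 nt long, that pair with messenger RNAs and cause their cleavage or block their translation. Several families mark stages of shoot growth. In Arabidopsis, miR156 holds back the SPL transcription factors and is high in young shoots, and miR172 holds back AP2-like factors and builds up as plants come to flower. Other families act on auxin response (miR160, miR167), leaf polarity (miR165, miR166), organ boundaries (miR164), growth (miR396) and the NF-YA subunits of a transcription factor (miR169).

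Matched reads came to 106142 in S and 265352 in FB, against 226523 in NL and 404345 in CL. They took 1.32% of the clean reads of S and 4.20% of those of FB, against 3.15% in NL and 5.46% in CL, so S held the smallest share. The level of a sequence is its reads per 1000000 clean reads (RPM), where a single read was worth 0.125 RPM in S, 0.158 in FB, 0.139 in NL and 0.135 in CL. Each class was also formed with reads per 1000000 matched reads, and the sequences in the same class by both denominators are the ones described. The median sequence had a log2 ratio of reproductive mean over leaf mean of -0.41 by clean reads and 0.16 by matched reads, a shift of 0.57. Ratios have exact 95% intervals in brackets. These cover counting error only, and PCR copies of a molecule are counted as separate reads.

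The forms that carried the separation toward the reproductive organs are shown first. A form is numbered by its rank in reads within its family. Bases 2 to 8, the seed, are in capitals, and sequences run 5′ to 3′ with T as in the deposited tables.
miR172 form 1: aGAATCTTgatgatgctgcat
miR172 form 5: gGAATCCTgatgatgctgcat
miR172 form 6: aGAATCTTgatgatgctgcct
miR172 form 7: gAATCCTGatgatgctgcat
miR172 form 11: gAGAATCTtgatgatgctgca
miR167 form 3: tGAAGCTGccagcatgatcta
miR169 form 1: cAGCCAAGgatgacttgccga
miR169 form 2: cAGCCAAGgatgacttgccgg
miR171 form 1: tGATTGAGccgtgccaatatc
miR319 form 1: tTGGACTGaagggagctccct
miR529 form 2: aGAAGAGAgagagtacagcct

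The forms that were lower in S and FB than in both leaf libraries are written the same way, with the seed in capitals. They are shown because several differ from a form above by a single base or only near the 3′ end.
miR172 form 2: cGAATCTTgatgatgctgcat
miR167 form 1: tGAAGCTGccagcatgatctga
miR167 form 2: tGAAGCTGccagcatgatctgt
miR171 form 2: tTGAGCCGcgtcaatatctcc
miR164 form 2: tGGAGAAGcagggcacgtgtt
miR164 form 4: tGGAGAAGcagggcacatgtt
miR156 form 1: cTGACAGAagatagagagcac
miR157 form 1: tGACAGAAgatagagagcac
miR156 form 3: tTGACAAAgagagagagcacg
miR535 form 3: tGACAAAGagagagagcacgc
miR396 form 1: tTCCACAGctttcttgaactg

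By clean reads 22 of the 225 sequences were above (9.78%) and 68 were below (30.2%). By matched reads 48 were above (21.3%) and 39 were below (17.3%). By both denominators 22 were above (9.78%), in 10 families, and 38 were below (16.9%), in 11 families. Of the 22 above, the closest reproductive and leaf libraries by clean reads lay at least 2-fold apart in 12 and at least 10-fold apart in 5. Of the 38 below, 28 lay at least 2-fold and 16 at least 10-fold apart by clean reads. By matched reads, 21 of the 48 above lay at least 2-fold and 6 at least 10-fold apart. Of the 39 below by matched reads, 29 lay at least 2-fold and 10 at least 10-fold apart. The sequences above took 21.5% of matched reads in S and 6.84% in FB, against 0.734% in NL and 0.435% in CL. The sequences below took 2.24% in S and 3.28% in FB, against 28.2% in NL and 19.5% in CL. The direction of these shares was set by how the classes were formed, so only their size is a result. The count depended on the library left out. Without FB there were 22 above and 106 below, and without S 82 above and 60 below. Without NL, which leaves only plants of the low temperature group, there were 25 above and 53 below, and without CL 44 above and 50 below. Leaving out a library drops a condition from the rule, so no count can fall. A random order of the libraries would then also place more sequences in each class.

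**Figure D1:**
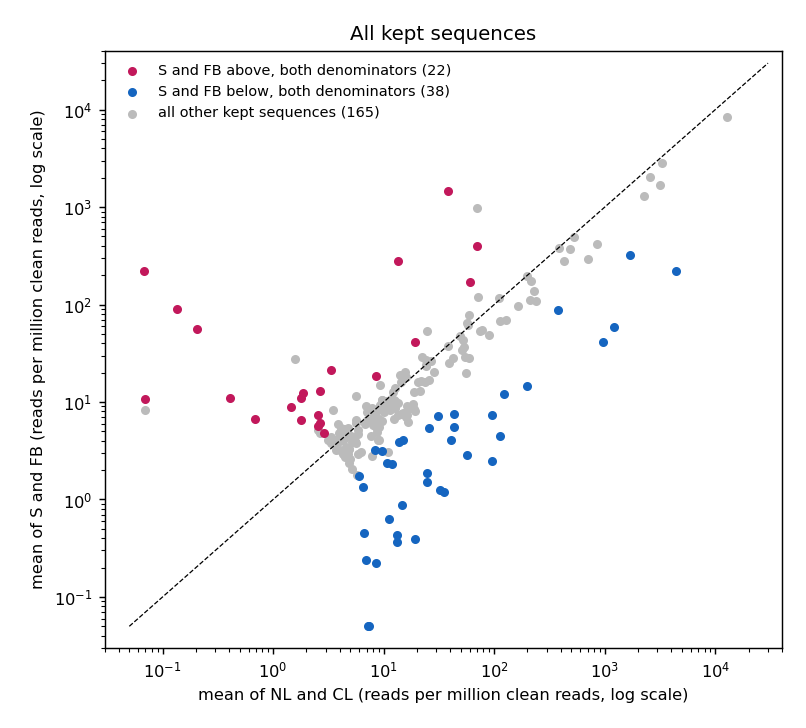
Mean level of S and FB (y axis) against the mean of NL and CL (x axis), both in RPM on log scales, for each of the 225 kept sequences. Points are coloured by class over both denominators, means under 0.05 are drawn at 0.05, and the dashed line marks equal means; the 22 sequences above and the 38 below lie on either side of it.

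FB exceeded S in 14 of the 22 sequences above, so that S was the reproductive library nearer to the leaf libraries there, and in 32 of the 38 below, where FB was the nearer. CL exceeded NL in 14 of the 22 above and in 28 of the 38 below. The members of a class thus did not share a single order of the 4 libraries.

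With only 6 ways to split 4 libraries 2 and 2, a permutation test cannot give a p under 0.333. In a random order of the 4 libraries, a sequence would be above in 1 of the 6 splits and below in 1, by a single denominator. Whether the counts above and below differ from that was not tested. The edgeR quasi-likelihood test sets the difference between sides against the spread of the unlike libraries within them. Since those libraries are not replicates, its p-values do not test a condition. With clean reads as library sizes edgeR called 2 of the 225 sequences, both higher in S and FB, and 37 had an unadjusted p under 0.05. The 2 were miR172 form 5 (edgeR adjusted p = 0.0282) and miR172 form 6 (edgeR adjusted p = 0.0400). Both forms passed the read minimum through S and FB alone, being close to absent from leaves. The next by adjusted p were miR167 forms 17 and 19 and miR172 form 1, each with an edgeR adjusted p of 0.0532. The number of calls was 36 with matched reads as library sizes, 24 with TMM factors and 49 with DESeq2. Without FB edgeR called 71, without S 31, and without NL or without CL it called 0, with 17 and 16 sequences at an unadjusted p under 0.05.

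miR172, the regulator of AP2-like factors, held 8 of the 22 sequences above and 2 of the 38 below. As a family it reached 2565 RPM in S and 2356 RPM in FB, against 1852 RPM in NL and 873 RPM in CL. By matched reads FB lay between the leaf libraries, so the family total was not separated by both denominators. Of its 14 kept forms, 8 were above, 2 were below and 4 overlapped.

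miR172 form 1, identical to Arabidopsis miR172a, had 1836 RPM in S and 1075 RPM in FB, against 30.7 RPM in NL and 45.8 RPM in CL. Its lower reproductive level, in FB, was 23.5 times its higher leaf level, in CL (21.0 to 26.2). miR172 form 2 differs from it by A1C alone, counted from the 5′ end of form 1, and had 57.4 RPM in S and 25.8 RPM in FB, against 1318 RPM in NL and 607 RPM in CL. The closest pair for form 2, S over CL, had a ratio of 0.0946 (0.0857 to 0.104). By matched reads the closest ratio of form 2 was 0.390. Form 1 thus took 71.6% of the family's reads in S and 45.6% in FB, against 1.66% in NL and 5.25% in CL. Form 2 took 2.24% in S and 1.10% in FB, against 71.2% in NL and 69.5% in CL. In both reproductive libraries form 1 led the family, and in both leaf libraries form 2 did.

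4 further miR172 forms were close to absent from leaves. Form 5 carries A1G and T7C relative to form 1, the second inside the seed, and had 764 reads in S and 2178 in FB, against 0 in NL and 1 in CL. Read as up to 3 reads, the 0 in NL makes the lower reproductive level, in S, at least 229-fold higher. Against the single read in CL the ratio of S was 705 (126 to 27893). Form 7 is form 5 without its first base and had 159 reads in S and 591 in FB, against 0 in NL and 3 in CL, which makes S at least 47.6-fold higher than NL.

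Form 6 carries A20C relative to form 1 and had 828 reads in S and 472 in FB, against 0 in NL and 2 in CL, so that FB was at least 179-fold higher than NL. Form 11 starts a base earlier than form 1 and had 144 reads in S and 22 in FB, against 1 in NL and 0 in CL, at least 8.59-fold higher in FB than in CL. In forms 5 and 7 FB exceeded S, and in forms 6 and 11 S exceeded FB. Forms 6 and 11 are near copies of form 1, as defined below, at a lower level than that form in all 4 libraries.

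Form 10, which is form 2 with a further base at its 3′ end, was the other form below, with 7 reads in S and 0 in FB, against 147 in NL and 46 in CL. S over CL was 0.140 (0.0535 to 0.313) by clean reads, and by matched reads the interval (0.221 to 1.29) did not leave out 1. Form 14 had 0 reads in S and 105 in FB, against 1 in NL and 0 in CL, and overlapped because S did not exceed the leaf libraries. Form 4, which is form 1 without its first base, had 202 RPM in S and 142 RPM in FB, against 83.3 RPM in NL and 36.6 RPM in CL. Since form 2 without its first base gives the same letters, form 4 cannot be assigned to either. Form 3, with T7A and T21A relative to form 1, overlapped, at 58.9 RPM in S and 331 RPM in FB, against 277 RPM in NL and 121 RPM in CL, as did forms 8 and 9.

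**Figure D2:**
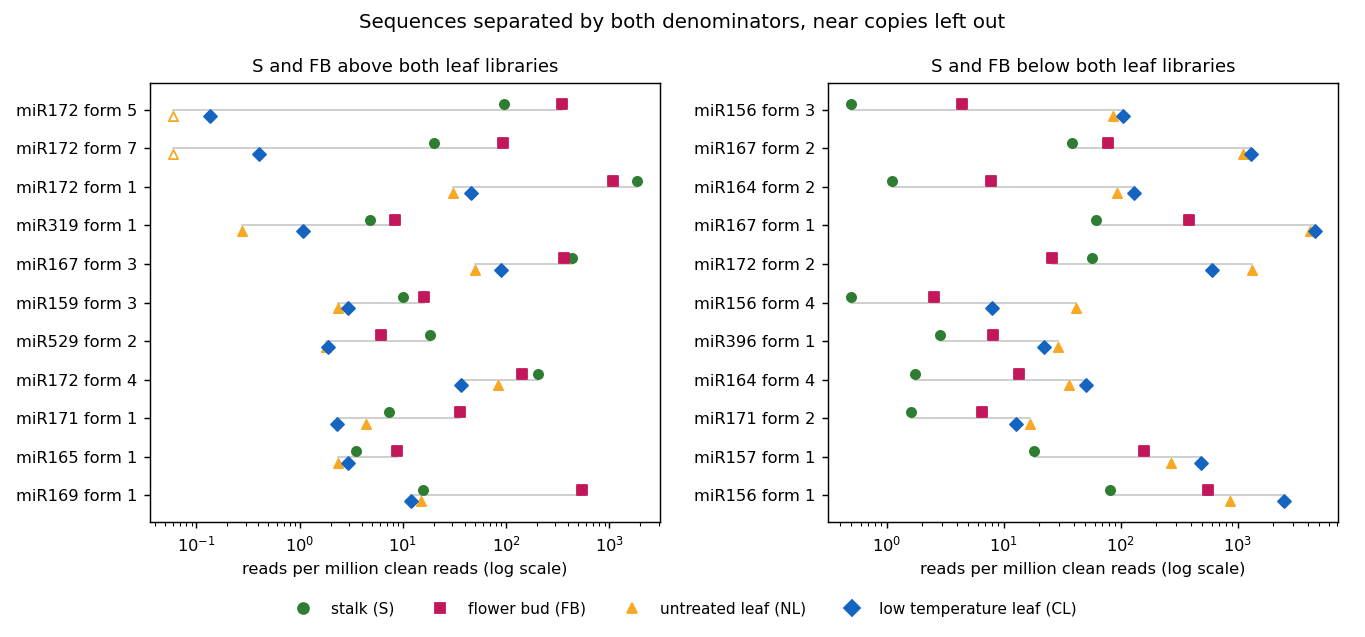
Levels in RPM (log scale) of the 22 separated sequences that are not near copies of a more abundant one, 11 above (left) and 11 below (right), in S, FB, NL and CL. Each row is a form, ordered by the ratio of its closest pair, and an open symbol stands for 0 reads; in miR172 forms 5 and 7 the NL symbol is open.

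miR167, which acts on the auxin response factors ARF6 and ARF8 in Arabidopsis, held 17 of the 38 sequences below and 2 of the 22 above, with none of its 19 kept sequences overlapping. The family had 596 RPM in S and 955 RPM in FB, against 6091 RPM in NL and 6738 RPM in CL. FB over NL, the closest pair, was 0.157 (0.153 to 0.161), and by matched reads the closest pair was 0.365 (0.354 to 0.376). It was the most abundant of the families below in leaves.

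Its 3 leading forms split by length. Form 1, of 22 nt, had 61.4 RPM in S and 384 RPM in FB, against 4195 RPM in NL and 4542 RPM in CL. Form 2, of 22 nt with A22T relative to form 1, had 38.2 RPM in S and 78.4 RPM in FB, against 1109 RPM in NL and 1296 RPM in CL. Form 3, of 21 nt and identical to Arabidopsis miR167a, shares the first 20 bases of both and had 435 RPM in S and 365 RPM in FB, against 50.5 RPM in NL and 88.9 RPM in CL. The closest pair of form 3, FB over CL, was 4.10 (3.76 to 4.48). Form 3 took 73.1% of miR167 reads in S and 38.2% in FB, against 0.830% in NL and 1.32% in CL. Form 1 took 10.3% in S and 40.2% in FB, against 68.9% in NL and 67.4% in CL, so that in FB forms 1 and 3 were near each other.

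The 17 miR167 sequences below had a median ratio of 0.0877 for the closest pair by clean reads. 15 of them are near copies of another miR167 form, and 2, forms 17 and 19, had no read in S or FB. Form 19 had 50 reads in NL and 55 in CL and, with 0 read as up to 3 reads, was at least 14.6-fold lower in S and FB. Form 16, of 21 nt, was the other form above, with 47 reads in S and 34 in FB, against 18 in NL and 19 in CL.

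**Figure D3:**
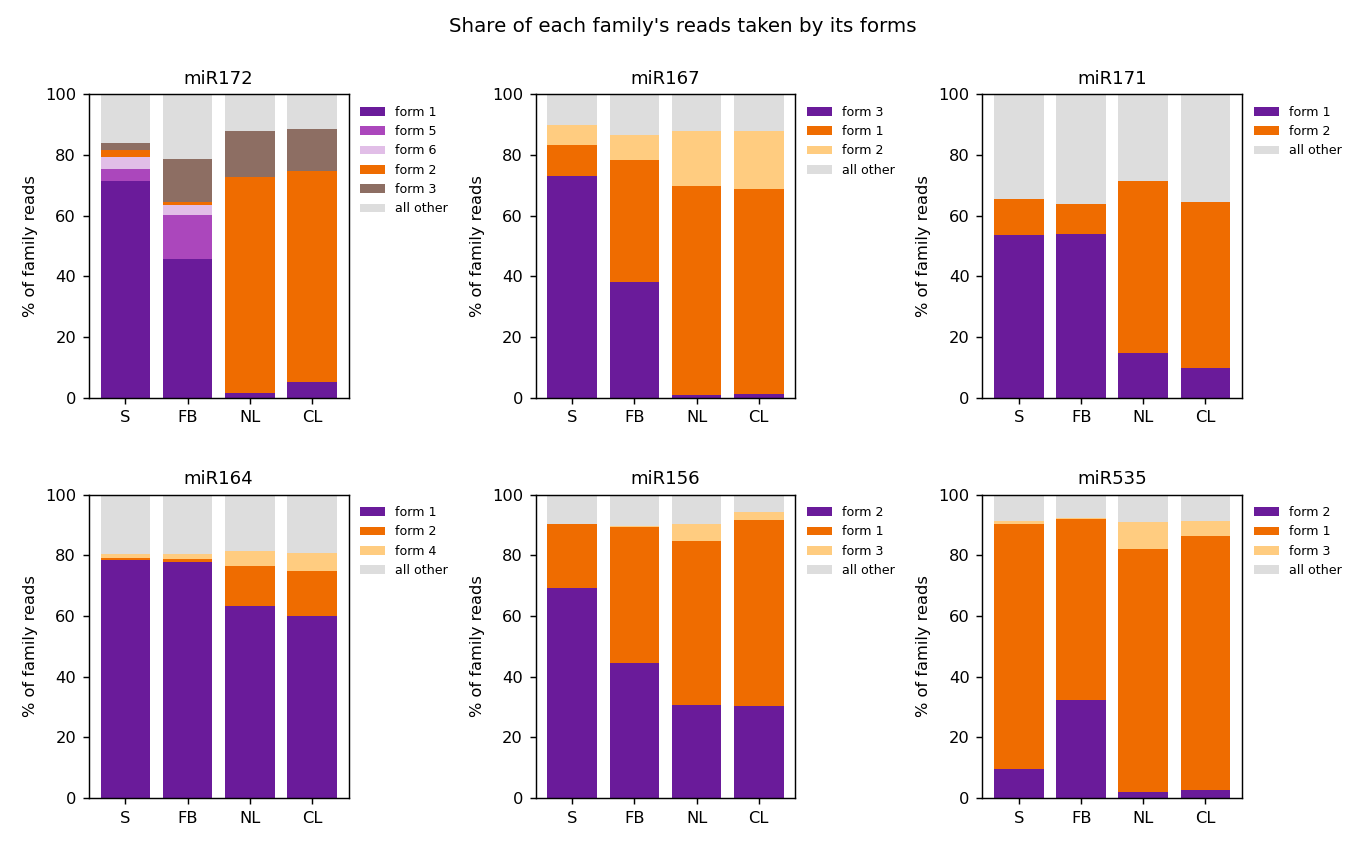
Share of each family's reads (%, y axis) taken by the named forms in S, FB, NL and CL, for miR172, miR167, miR171, miR164, miR156 and miR535. Colours stack the forms and grey is all other sequences; miR172 form 1 takes 71.6% in S and 45.6% in FB, against 1.66% in NL and 5.25% in CL.

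miR171, which targets GRAS-domain factors of the shoot meristem, gave a further case of forms on opposite sides. Form 1, identical to rice miR171b, had 7.36 RPM in S and 35.6 RPM in FB, against 4.44 RPM in NL and 2.30 RPM in CL. Its closest pair, S over NL, was 1.66 (1.06 to 2.63). Form 2, with 3 differences from its best match, had 1.62 RPM in S and 6.49 RPM in FB, against 16.9 RPM in NL and 12.7 RPM in CL, a closest ratio of 0.511 (0.345 to 0.745). Form 1 took 53.6% of the family in S and 54.0% in FB, against 14.8% in NL and 9.88% in CL. The 2 forms have different seeds, and form 2 starts 3 bases further along a stretch that is alike but not identical in both.

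miR164, which limits NAC boundary factors, was overlapping as a family, at 153 RPM in S and 808 RPM in FB, against 713 RPM in NL and 867 RPM in CL. Its form 2 was not, with 9 reads in S and 49 in FB, against 675 in NL and 964 in CL. FB over NL was 0.0828 (0.0606 to 0.111) for this form. Form 4, with G17A relative to form 2, had 14 reads in S and 85 in FB, against 262 in NL and 374 in CL. Form 1, which ends in other bases (C20T and A21T lead from form 1 to form 2), took 78.5% of the family in S and 77.8% in FB, against 63.2% in NL and 60.0% in CL, while its level overlapped. Form 1 and form 2 share a seed.

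Across all 225 sequences there were 79 seeds, and 35 seeds held a separated sequence. Only 2 seeds held sequences of both classes, GAATCTT of miR172 (3 above, 2 below and 1 overlapping of 6) and GAAGCTG of miR167 (2 above and 12 below of 14). Summed by seed, GAATCTT had 2002 RPM in S and 1206 RPM in FB, against 1371 RPM in NL and 660 RPM in CL, and overlapped. GAAGCTG had 555 RPM in S and 889 RPM in FB, against 5777 RPM in NL and 6391 RPM in CL. The seed GAATCCT of miR172 form 5 was held by that form alone among the kept sequences.

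Of the 36 families with at least 100 reads, 5 were above (13.9%) and 9 below (25%) by clean reads, and 14 were above (38.9%) and 4 below (11.1%) by matched reads. By both denominators 4 were above (11.1%), namely miR169, miR529, miR319 and miR2914, and 4 were below (11.1%), namely miR167, miR156, miR157 and miR396. Without S, 17 families were above and 10 below by clean reads, without FB 5 and 23, without NL 6 and 18, and without CL 11 and 10. As for sequences, leaving out a library cannot lower these counts.

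miR169, which acts on NF-YA subunits, had 42.3 RPM in S and 643 RPM in FB, against 20.4 RPM in NL and 19.7 RPM in CL. S over NL was 2.07 (1.70 to 2.53) and FB over NL was 31.5 (26.7 to 37.4), so the family's separation was mostly that of FB. All 3 kept miR169 sequences were above, though not all were far from the leaf libraries in S. Form 3 had 0.624 RPM in S and 21.4 RPM in FB, against 0.417 RPM in NL and 0.405 RPM in CL. Form 1 had 15.8 RPM in S and 545 RPM in FB, against 15.0 RPM in NL and 11.9 RPM in CL, and its S over NL ratio of 1.06 (0.811 to 1.38) did not leave out 1. Form 2, with A21G relative to form 1, had 15.1 RPM in S and 6.65 RPM in FB, against 0.972 RPM in NL and 2.57 RPM in CL. It was higher in S than in FB, the opposite order to form 1.

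miR319, which acts on TCP factors, had 71 reads in S and 103 in FB, against 4 in NL and 14 in CL. Its levels were 8.86 RPM in S and 16.3 RPM in FB, against 0.555 RPM in NL and 1.89 RPM in CL, and the closest pair, S over CL, was 4.68 (2.62 to 8.99). Form 1, identical to Arabidopsis miR319a, had 39 reads in S and 53 in FB, against 2 in NL and 8 in CL. The related miR159, a regulator of GAMYB factors, was above by matched reads only, at 106 RPM in S and 305 RPM in FB, against 83.0 RPM in NL and 140 RPM in CL. The study lists a further miR159 sequence, higher in S and FB than in both leaf libraries, that is not analysed here. The family's level and class thus hold only for the sequences used. Form 3 of miR159, of 18 nt, had 81 reads in S and 102 in FB, against 17 in NL and 22 in CL.

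**Figure D4:**
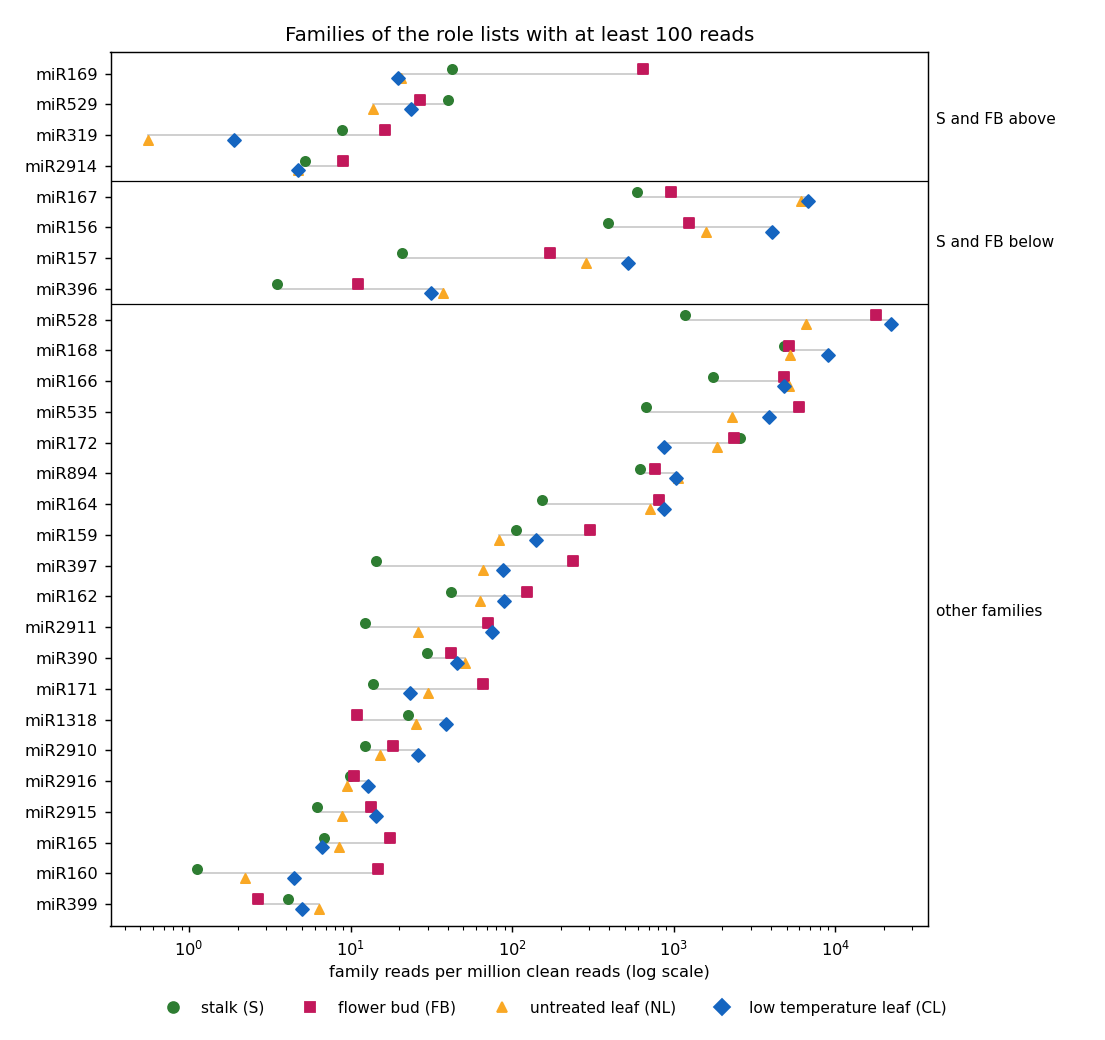
Family levels in RPM (log scale) in S, FB, NL and CL for the families of the role lists with at least 100 reads over the 4 libraries. Lines separate 4 families above, 4 below and the rest by both denominators; in miR319 S and FB lie at 8.86 and 16.3, against 0.555 in NL and 1.89 in CL.

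The SPL regulators did not move as a group, with 1 of 4 families above, 2 below and 1 overlapping. miR156 had 391 RPM in S and 1251 RPM in FB, against 1594 RPM in NL and 4063 RPM in CL. Its closest pair, FB over NL, was 0.785 (0.763 to 0.808), a smaller distance than that between S and FB. Within it form 1, identical to a known miR156 of Selaginella, had 81.8 RPM in S and 560 RPM in FB, against 862 RPM in NL and 2495 RPM in CL. Form 2, of 20 nt, overlapped in level and took 69.4% of the family in S and 44.4% in FB, against 30.7% in NL and 30.2% in CL.

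miR157, which shares its targets with miR156, had 21.0 RPM in S and 172 RPM in FB, against 288 RPM in NL and 524 RPM in CL. Its form 1 is miR156 form 1 without the first base, and the reads of the 2 forms differ by that base alone. miR529, which shares SPL targets in rice, had 40.1 RPM in S and 27.1 RPM in FB, against 13.7 RPM in NL and 23.5 RPM in CL. FB over CL, at 1.15 (0.927 to 1.43), did not leave out 1. Form 2 of miR529 was further apart, with 147 reads in S and 39 in FB, against 13 in NL and 14 in CL.

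miR535, named beside miR156 for its similar sequence, was overlapping at 677 RPM in S and 5948 RPM in FB, against 2293 RPM in NL and 3900 RPM in CL. Its form 3, with C7A relative to form 1 and thus a different seed, had 8.11 RPM in S and 21.2 RPM in FB, against 205 RPM in NL and 192 RPM in CL. FB over CL was 0.110 (0.0917 to 0.132). Form 2, with A5G and C7T relative to form 1, was above by matched reads only, at 64.5 RPM in S and 1912 RPM in FB, against 43.2 RPM in NL and 97.7 RPM in CL. miR156 form 3, with 3 differences from its best match, repeats miR535 form 3 from its second base on, and its name is uncertain. It had 4 reads in S and 28 in FB, against 617 in NL and 770 in CL, with FB over NL at 0.0517 (0.0341 to 0.0755).

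miR396, which acts on growth-regulating factors, had 3.49 RPM in S and 11.1 RPM in FB, against 37.4 RPM in NL and 31.4 RPM in CL. FB over CL was 0.353 (0.267 to 0.464). Its form 1, identical to Arabidopsis miR396a and its only kept sequence, had 23 reads in S and 51 in FB, against 210 in NL and 164 in CL. The study lists further miR396 sequences that are not analysed here. Among them is a sequence higher in FB than in NL, and another lower in S and FB than in both leaf libraries. The level and class of miR396 thus hold only for the sequences used. miR171 was above as a family by matched reads only. The list of meristem and growth regulators thus had 1 family below and 1 overlapping, and miR394 fell under the minimum at 56 reads.

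The other lists held no family above or below by both denominators, apart from miR167 among the auxin regulators, miR169 among the nutrient regulators and miR2914. miR2914, a name given to a fragment that resembles ribosomal RNA, had 42 reads in S and 57 in FB, against 34 in NL and 35 in CL, and its closest ratio of 1.11 (0.691 to 1.79) did not leave out 1. Of the other 6 families of that kind, miR894 and miR1318 were below by clean reads only and miR2915 was above by matched reads only. miR2910, miR2911 and miR2916 overlapped by either denominator. miR168, which acts on AGO1, was below by clean reads only, at 4797 RPM in S and 5143 RPM in FB, against 5236 RPM in NL and 8959 RPM in CL. miR162, which acts on DCL1, was above by matched reads only, at 41.8 RPM in S and 123 RPM in FB, against 63.3 RPM in NL and 88.5 RPM in CL.

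miR390, which sets off trans-acting siRNAs against auxin response factors, was below by clean reads only, at 29.8 RPM in S and 41.6 RPM in FB, against 51.0 RPM in NL and 45.7 RPM in CL. miR160 was above by matched reads only, with 9 reads in S and 94 in FB, against 16 in NL and 33 in CL, so S was the lowest of the 4 by clean reads. miR397, which acts on laccases, overlapped, at 14.5 RPM in S and 240 RPM in FB, against 66.1 RPM in NL and 87.4 RPM in CL. The leading form of miR397 has 4 mismatches or gaps to its best match. In these 3 families S lay below both leaf libraries by clean reads. miR165, which shares its targets with miR166, was above as a family by matched reads only. Its form 1 was above by both denominators, with 28 reads in S and 55 in FB, against 17 in NL and 22 in CL. Of the list members under the minimum, miR393, miR394, miR395, miR398, miR408 and miR827 had between 2 and 81 reads over the 4 libraries, and miR403 was not analysed here.

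miR528, the copper-related family of monocots and the most abundant of all, overlapped, at 1179 RPM in S and 17966 RPM in FB, against 6540 RPM in NL and 22114 RPM in CL. Of its 57 kept sequences 54 overlapped and 3 were below. miR166, a regulator of HD-ZIP III polarity factors, overlapped at 1750 RPM in S and 4839 RPM in FB, against 5197 RPM in NL and 4811 RPM in CL, with 3 of 29 kept sequences above and 1 below. Its form 8 had 24.6 RPM in S and 57.1 RPM in FB, against 19.6 RPM in NL and 18.9 RPM in CL. Of the 27 kept sequences of miR894, 15 were below by clean reads only and 2 were above by matched reads only, so that no sequence was separated by both. Among the 7 families with at least 14 kept sequences, most sequences were not separated by both denominators in all but miR167 and miR172.

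Many separated sequences were near copies, defined as differing by 1 substitution, or by up to 3 bases at the ends, from a kept sequence with at least 10 times the reads. Whether such copies are sequencing errors or separate RNAs was not tested. They made up 11 of the 22 above and 27 of the 38 below, beside 121 of the 165 overlapping. The 11 and 11 sequences left are those in the plot of separated forms. Of the near copies, 6 above and 18 below had a parent in their own class.

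Length was not used to form the classes. Of the 30 kept sequences of 22 nt and longer, 0 were above and 12 were below by both denominators, and 11 of those 12 belonged to miR167. Among the 19 that were not miR167, 0 were above and 1 was below. This depended on the denominator. By clean reads 11 of these 19 were below (57.9%, against 30.2% of all kept sequences), and by matched reads 1 was above and 1 below. At 21 nt 17 of 125 were above and 18 below. In reads, 22 nt took 2.37% of matched reads in S and 2.22% in FB, against 18.6% in NL and 12.5% in CL. Without miR167 the shares were 1.62% in S and 1.08% in FB, against 1.37% in NL and 1.57% in CL, and overlapped. At 21 nt the shares were 80.5% in S and 83.8% in FB, against 67.1% in NL and 75.4% in CL. Without miR167 these also overlapped, at 80.6% in S and 84.8% in FB, against 82.3% in NL and 85.4% in CL.

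**Figure D5:**
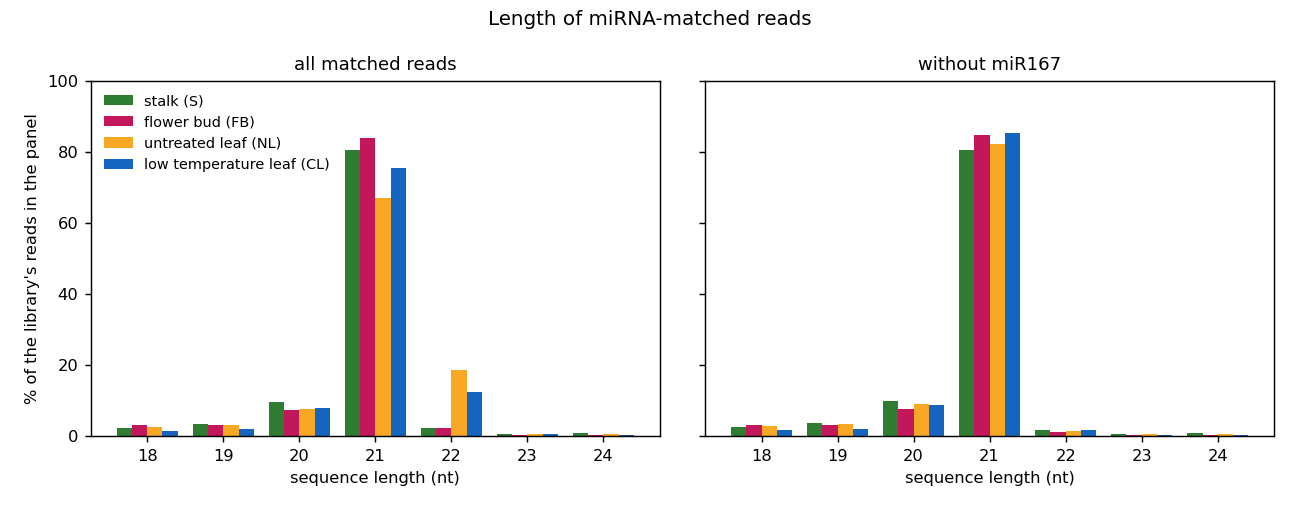
Share of reads (%, y axis, from 0) by sequence length in nt (x axis) in S, FB, NL and CL, for all matched reads (left) and without miR167 (right). At 22 nt S and FB hold 2.37% and 2.22% on the left, against 18.6% in NL and 12.5% in CL, and the 4 bars are near each other on the right.

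The first base of a small RNA is known in Arabidopsis to steer it toward particular Argonaute proteins. Reads that start with A took 17.0% of matched reads in S and 4.29% in FB, against 1.59% in NL and 0.705% in CL. Without miR172 the shares were 1.36% in S and 0.564% in FB, against 0.556% in NL and 0.382% in CL, a far smaller distance. Reads that start with C took 4.61% in S and 4.29% in FB, against 9.58% in NL and 7.36% in CL. Without miR172, whose form 2 starts with C, the C shares were 5.11% in S and 4.47% in FB, against 5.48% in NL and 6.30% in CL, also a far smaller distance. Few kept sequences start with A, namely 4 of the 22 above, 0 of the 38 below and 7 of the 165 overlapping, so these counts are too small to compare.

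Perfect matches to a known miRNA made up 7 of the 22 sequences above, 4 of the 38 below and 15 of the 165 overlapping. At the edge of the read minimum, miR528 form 57 was kept with 100 reads (0 in S and 41 in FB, against 11 in NL and 48 in CL) and miR166 form 30 was left out with 99 (12 in S and 51 in FB, against 16 in NL and 20 in CL). At the edge of the class above, miR168 form 23 had a closest ratio of 1.02 (0.597 to 1.74). In all, the closest interval by clean reads left out 1 in 15 of the 22 above and in 34 of the 38 below.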

How the data were processed

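Small RNAs were sequenced from 4 pooled samples, 1 library each of stalk, flower bud, untreated leaf and low temperature-treated leaf. The deposited counts are reads per unique sequence. The authors removed adaptors, low quality reads, polyA reads and reads under 18 nt, collapsed identical reads and aligned them by BLAST to miRBase release 15 (BLAST version not given in the sources used here). Other deposited columns give length, best match, mismatches and gaps. Small RNAs without a match were not used here.

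Counts were divided by the totals of clean reads in the study's text, or by each library's matched reads. A family joins best matches with the same number after miR. Each library's 0 was taken to allow 3 reads. Ratios have exact conditional binomial intervals at 95% and shares have exact binomial intervals. edgeR 4.0.16 (quasi-likelihood, Benjamini-Hochberg adjustment over all kept sequences, threshold 0.05) and DESeq2 1.42.0 were run in R 4.3.3, and all else in Python 3.11.15. Scripts were tested on simulated data.

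Members, families and lists were chosen with earlier results of these data known. Named families were drawn from the lists, at a minimum of 100 reads. Named sequences were drawn from the 10 furthest apart in each direction and the leading sequence of families with at least 1000 reads. Also used was the leading sequence of each class in families with both. Not all of these families and sequences are described, miR399 among them. Other forms were named after their values were seen. Alternatives changed the denominator, the read minimum, the match, the margin, and the libraries and sequences used. No genome or precursors were used here, so forms were not assigned to loci.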

Additional observations from a re-analysis of the deposited data

How the results depend on the processing

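By clean reads 22 sequences were above and 68 below, and 5 families were above and 9 below. Other denominators moved these counts. With matched reads they were 48 and 39 sequences and 14 and 4 families, with matched reads without miR528 51 and 40 sequences and 16 and 4 families, with TMM factors 41 and 41 sequences and 11 and 5 families, and with DESeq2 size factors 41 and 39 sequences and 13 and 4 families. All 22 sequences above by both denominators, and 37 of the 38 below, kept their class in all 5. Clean reads and matched reads are among the 5 and formed these classes, so only the other denominators could have changed them. A minimum of 20 reads gave 75 and 242 of 708 sequences and 15 families above, and 1000 reads gave 6 and 22 of 53 sequences and 2 families above. At most 1 mismatch or gap left 34 sequences below. A margin of 1.5-fold left 41 sequences below, with 2 and 3 families, and 2-fold left 12 and 29 sequences, with 2 and 2 families. Asking that the counting interval leave out 1, or leaving out each family's leading sequence, gave 3 families above. Without near copies, an alternative chosen after the data were seen, 11 and 25 of 66 sequences remained separated by clean reads. The cause of these shifts was not tested, apart from the smaller or larger number of sequences that a minimum, margin or match sets.

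Leaving out a library gave 22 (without FB) to 94 (without S) sequences above and 68 (without S) to 177 (without FB) below by clean reads, 5 to 17 families above and 10 to 23 below, and 0 to 71 edgeR calls, where a lone library was assumed to vary like the other side. In place of 2 calls, edgeR made 36 with matched reads, 24 with TMM and 0 with a minimum of 20 reads (136 at an unadjusted p under 0.05), and DESeq2 made 49. As reproductive mean minus leaf mean in percentage points, the share of 20 nt was 0.69 and became -0.13 without miR167. The share of 21 nt was 10.9, and became -1.15 without miR167 and 1.26 over unique sequences. The share of 22 nt was -13.3, and became -0.12 without miR167 and -3.01 over unique sequences. The share of 23 nt was -0.15, and became 0.026 without miR167 and 0.034 over unique sequences. No paired analysis was possible because each condition has 1 library.

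Low depth limits the weakest forms. In S, 3 reads come to 0.374 RPM, so levels near or under it were not measurable there, and a sequence at 100 reads has few per library.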
